A study of Mus musculus with 12 samples.

Results

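The comparison described here sets 3 RNA libraries of a mouse tumour culture labelled Glioblastoma against 3 libraries of neural stem cells (NSC). Its members are the genes that reached 1 FPKM in at least 3 of these 6 libraries with the status OK in all 6, which gave 15492 genes of 53932 identifiers. FPKM divides a gene's fragments by the length of its transcript and by the total mapped in that library. The 6 libraries belong to a series of 12 in 4 groups of 3, whose title concerns metabolites of the one-carbon cycle and the identity of cells. The other groups are Astrocytes and astrocytes moved to a metabolite medium called MIM (MIM-Astrocytes). Glioblastoma is labelled C57BL/6, cerebella and E18.5, with no genotype, transgene, oncogene, clone or culture medium given. NSC are labelled C57BL/6, cortex and E14.5, with no genotype given, and by the protocol they were grown from dissociated cortex as neurospheres with EGF and FGF2 and used in early passages. Tumour state, brain region, embryonic day and any difference in medium therefore cannot be told apart between the groups. Whether the 3 libraries of each group are separate cultures is not stated, so a p-value here reflects library-to-library spread, which may be technical.

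Neural stem cells of the embryonic cortex divide in response to EGF and FGF2, keep neuronal genes low through Notch signalling, and already carry many genes of the astrocyte lineage. Glioblastoma is the malignant glioma in which stem cell factors such as Sox2 and Olig2 are often expressed, while receptor tyrosine kinase, RB and p53 signalling are often altered. Tumour cells also commonly take up or make more of the serine, glycine and folate units needed for nucleotides.

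The values held no counts, so sequencing depth is unknown. The deposited interval extended by 28.9% to 35.3% of the value on each side for genes near 1 FPKM, and by 9.3% to 10.5% for genes near 10 FPKM. Each Glioblastoma library held 14575 to 14656 genes of at least 1 FPKM, and each NSC library 14764 to 14919. Across the tested genes, libraries of 1 group correlated at 0.968 to 0.979 and libraries of different groups at 0.832 to 0.854, on log2 of FPKM plus 1 and across genes, which are not independent replicates. Protein-coding genes held 52.9 ± 4.1% of the FPKM sum in Glioblastoma and 45.5 ± 1.04% in NSC (SD, n = 3 each), and small RNA genes held 32.4 ± 4.78% in Glioblastoma and 41.4 ± 1.72% in NSC. For each share every Glioblastoma library lay beyond every NSC library (two-sided exact permutation p = 0.1, the smallest that 3 against 3 libraries allow).

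Most expressed genes differed between the cultures, with 73.8% of them called in either direction. Of the 15492 genes, 7497 (48.4%) were called higher in Glioblastoma and 3935 (25.4%) lower, at an adjusted p below 0.05 with limma on log2 of FPKM plus 1. By at least 2-fold, 2349 genes (15.2%) were higher and 1279 (8.26%) lower, 23.4% in all. All 3 Glioblastoma libraries lay above all 3 NSC libraries for 50.8% of the genes and below them for 26.8%, so that 77.7% did not overlap. The median gene stood 0.24 higher on the log2 scale in Glioblastoma. After median-of-ratios scaling that median was -0.01, and 5609 genes (36.2%) were called higher and 5696 (36.8%) lower, 73.0% in all. By at least 2-fold, 9.76% were then higher and 11.6% lower, 21.4% in all. Each gene called lower on the deposited scale was also called lower after scaling (3935), while 1861 of the genes called higher lost their call and 27 were called lower. Directions below are given on the deposited scale, and a gene or list whose call did not hold after scaling is named as such.

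Among the 15492 genes, 12556 reached 1 FPKM in all 6 libraries, 782 reached it in all 3 Glioblastoma libraries and in no NSC library, and 841 in all 3 NSC libraries and in no Glioblastoma library. These genes passed the filter through 1 group and had to differ. At the edge of the filter lay Nog, which encodes the BMP antagonist noggin and whose lowest NSC value was 1.0011 FPKM, and Fndc5, left out with a lowest NSC value of 0.9999 FPKM.

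**Figure D1:**
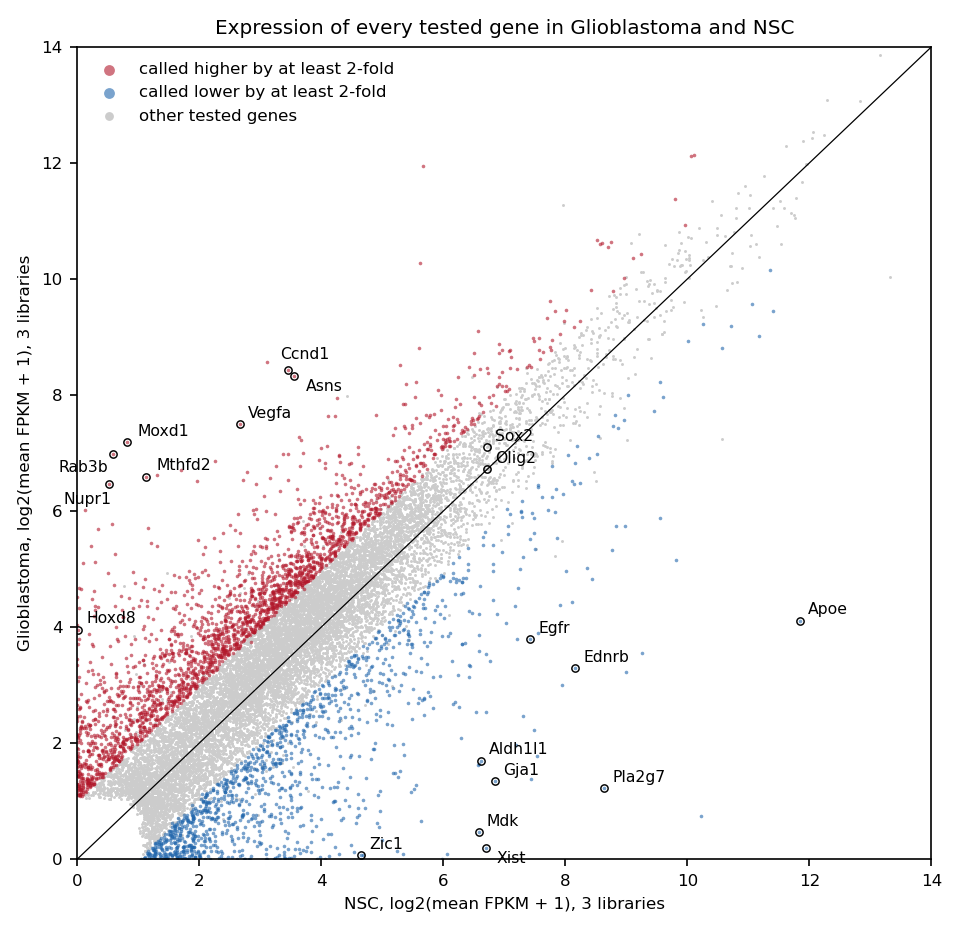
Mean expression of the 15492 tested genes in Glioblastoma (vertical axis) and NSC (horizontal axis), both as log2 of mean FPKM plus 1 over 3 libraries. Red points were called higher by at least 2-fold (2349), blue points lower by at least 2-fold (1279), and the line marks equal levels. Rab3b and Moxd1 lie far above the line and Apoe far below it, while Sox2 and Olig2 lie near it.

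Several of the genes that rose the most were below 1 FPKM in NSC. Rab3b, a small GTPase of regulated secretion (chromosome 4, 108879063 to 108943324, plus strand), had 127, 126 and 126 FPKM in Glioblastoma, against 0.745, 0.473 and 0.266 FPKM in NSC (log2 difference 6.42, SE 0.12, adjusted p = 4.64e-07). Moxd1, a monooxygenase related to dopamine beta-hydroxylase, had 145, 141 and 149 FPKM in Glioblastoma, against 0.711, 0.777 and 0.768 FPKM in NSC (6.38, SE 0.05). Neither gene averaged 1 FPKM in either astrocyte culture. Ddr2, a collagen receptor tyrosine kinase, stood at 50.5 ± 3.16 FPKM in Glioblastoma and 0.26 ± 0.2 FPKM in NSC, and Trf, the iron carrier transferrin, at 104 ± 5.68 FPKM in Glioblastoma and 2.25 ± 0.136 FPKM in NSC. Cpne8, a calcium-dependent membrane-binding protein, had 34 ± 1.26 FPKM in Glioblastoma and 0.216 ± 0.0636 FPKM in NSC, and was also present in Astrocytes at 29.4 FPKM. Rpl21, a ribosomal protein gene with many processed copies in the genome, had 380 ± 37.2 FPKM in Glioblastoma and 7.68 ± 1.98 FPKM in NSC, a value that depends on how reads were shared among those copies.

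The genes that fell the most included a lipid carrier, a growth factor and metal-binding proteins. Apoe, the main lipid carrier of the brain (chromosome 7), had 15.5, 17 and 16.6 FPKM in Glioblastoma, against 3941, 3822 and 3293 FPKM in NSC (log2 difference -7.73, SE 0.09, adjusted p = 2.31e-07). Its mean was 5375 FPKM in Astrocytes and 7459 FPKM in MIM-Astrocytes. Pla2g7, the platelet-activating factor acetylhydrolase, had 1.21, 1.65 and 1.12 FPKM in Glioblastoma, against 417, 407 and 360 FPKM in NSC (-7.41, SE 0.1). Mdk, the growth factor midkine, had 0.307, 0.293 and 0.531 FPKM in Glioblastoma, against 101, 99.8 and 82.6 FPKM in NSC (-6.12, SE 0.11). Ptn, the related factor pleiotrophin, was lower by less, at 299 ± 11.5 FPKM in Glioblastoma and 752 ± 76.5 FPKM in NSC (-1.32). The metallothioneins Mt2 (8.35 ± 0.629 FPKM in Glioblastoma, 511 ± 66.3 FPKM in NSC) and Mt3 (6.96 ± 1.29 FPKM in Glioblastoma, 246 ± 18 FPKM in NSC), which bind zinc and copper, also fell. Serpinh1, the collagen chaperone of the endoplasmic reticulum, fell to 2.89 ± 0.203 FPKM in Glioblastoma, against 146 ± 18.3 FPKM in NSC.

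Lists with at least 10 tested genes gave the broader pattern, read against the 48.4% of all genes called higher and 25.4% called lower. The same shares are the background for each list count given below. The Hox list, whose genes passed the filter through Glioblastoma, had the highest median (2.09, 11 of 11 higher). Of 24 tested genes for serine, asparagine and proline synthesis and its regulators, 22 were higher and 2 lower, with a median difference of 1.87. ERK output genes (16 of 19 higher, median 1.59), cholesterol synthesis genes (21 of 22, 1.31), S phase and mitosis genes (28 of 31, 1.19) and glycolysis and hypoxia genes (26 of 29, 1.03) followed. At the other end stood astrocyte genes (17 of 22 lower, median -2.02), clustered protocadherins (16 of 23 lower, -0.88) and the hedgehog pathway (7 of 12 lower, -0.55). After median-of-ratios scaling each of these medians kept its sign.

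**Figure D2:**
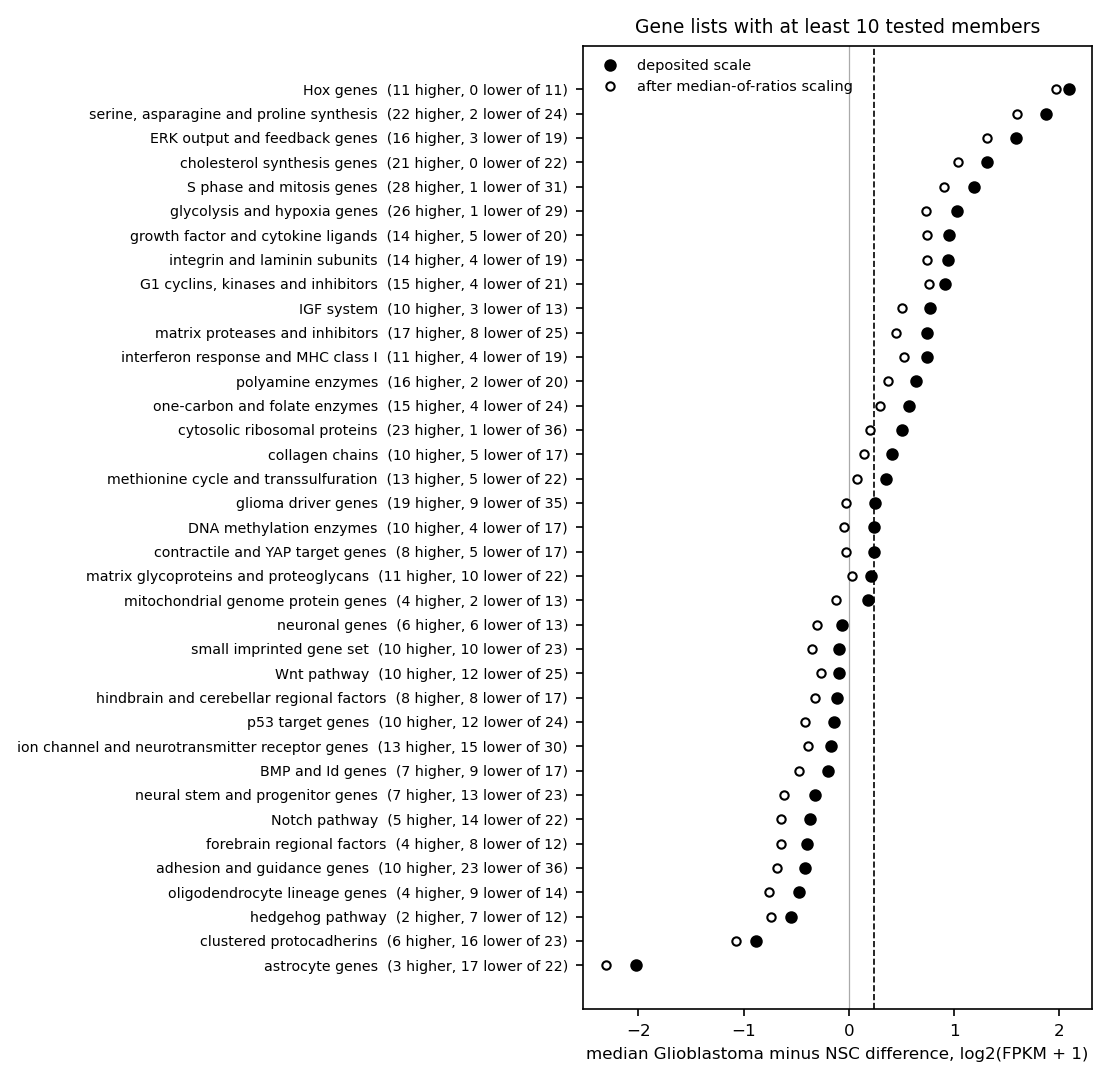
Median Glioblastoma minus NSC difference, in log2 of FPKM plus 1, of each gene list with at least 10 tested members, with its number of genes called higher and lower. Filled points are the deposited scale and open points the values after median-of-ratios scaling, the dashed line is the median of all genes (0.24), and the lists run between the Hox genes at 2.09 and the astrocyte genes at -2.02.

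Genes of the amino acid response were raised together. This response is run by ATF4, a transcription factor that is translated when amino acids are short or the endoplasmic reticulum is stressed and that binds promoter elements with the core TGATGNAA. Atf4 itself had 231, 221 and 235 FPKM in Glioblastoma, against 42.2, 42.7 and 36.5 FPKM in NSC (log2 difference 2.47, SE 0.08), and Ddit3, its partner CHOP, had 107, 106 and 113 FPKM in Glioblastoma, against 12.3, 11.5 and 10.8 FPKM in NSC (3.14, SE 0.06). Promoters of 4 genes with the element are shown because their transcripts, which were higher by 1.2 to 5.95 on the log2 scale, span small and large differences. Nupr1, a stress response gene, is not a member of the list. They are the 250 bases before the start of the RefSeq transcript in GRCm38.p6, 5′ to 3′ on the strand of the gene, with each TGATGNAA match on either strand in capitals.
Chac1 (chr2:119350992-119351241, plus strand): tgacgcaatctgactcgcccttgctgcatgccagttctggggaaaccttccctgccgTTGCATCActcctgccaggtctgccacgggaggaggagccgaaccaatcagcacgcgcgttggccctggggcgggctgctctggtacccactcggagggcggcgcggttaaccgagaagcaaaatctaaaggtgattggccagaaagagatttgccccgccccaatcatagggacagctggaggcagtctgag
Nupr1 (chr7:126625471-126625720, minus strand): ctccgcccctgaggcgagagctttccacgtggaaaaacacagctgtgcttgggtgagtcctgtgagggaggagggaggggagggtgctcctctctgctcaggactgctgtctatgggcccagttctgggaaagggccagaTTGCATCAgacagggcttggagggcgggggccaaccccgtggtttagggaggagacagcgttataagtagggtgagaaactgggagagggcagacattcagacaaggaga
Asns (chr6:7693210-7693459, minus strand): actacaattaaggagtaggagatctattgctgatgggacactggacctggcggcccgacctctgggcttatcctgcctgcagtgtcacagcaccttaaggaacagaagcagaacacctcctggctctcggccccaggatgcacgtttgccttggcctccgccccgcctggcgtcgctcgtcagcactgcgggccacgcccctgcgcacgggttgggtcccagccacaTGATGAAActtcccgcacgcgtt
Slc7a11 (chr3:50443614-50443863, minus strand): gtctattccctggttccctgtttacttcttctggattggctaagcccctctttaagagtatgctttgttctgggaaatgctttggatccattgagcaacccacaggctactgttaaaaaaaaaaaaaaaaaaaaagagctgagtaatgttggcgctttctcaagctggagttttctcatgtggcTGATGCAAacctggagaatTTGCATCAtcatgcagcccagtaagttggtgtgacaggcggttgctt
The search covered both strands and found the element in 1134 of the 32851 promoters of that table (3.45%). Of the 25 listed genes of this group 20 had a promoter in the table, and 5 of them (Asns, Chac1, Got1, Pycr1 and Slc7a11) held the element. A match describes the letters only, and no binding was measured.

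Transcripts of these 4 genes followed the same direction at different sizes. Chac1, which breaks down glutathione, had 40.3, 41.3 and 41.5 FPKM in Glioblastoma, against 0.215, 0.14 and 0.136 FPKM in NSC (log2 difference 5.18, SE 0.05, adjusted p = 2.31e-07). Nupr1, a small chromatin protein of the stress response, had 86.1, 88.5 and 88.8 FPKM in Glioblastoma, against 0.392, 0.495 and 0.419 FPKM in NSC (5.95, SE 0.05). Asns, asparagine synthetase, had 310, 313 and 338 FPKM in Glioblastoma, against 12.5, 9.74 and 9.81 FPKM in NSC (4.79, SE 0.1). The groups did not overlap for any of them, and Slc7a11, whose promoter holds the element on both strands, differed by less. This cystine carrier had 10.8 ± 0.227 FPKM in Glioblastoma and 4.16 ± 0.139 FPKM in NSC (1.2, SE 0.05). Trib3, a pseudokinase that restrains the response, had 32, 33.6 and 35.3 FPKM in Glioblastoma, against 0.0784, 0.0603 and 0.0745 FPKM in NSC (5.01, SE 0.06). It had no match of the element in these 250 bases.

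Genes of serine synthesis were higher by unequal amounts. Phgdh, which starts serine synthesis, had 164 ± 2.42 FPKM in Glioblastoma and 116 ± 11.3 FPKM in NSC (log2 difference 0.5), whereas Psat1 had 214 ± 6.67 FPKM in Glioblastoma and 61.6 ± 9.35 FPKM in NSC (1.79) and Psph had 157 ± 10.8 FPKM in Glioblastoma and 35 ± 3.5 FPKM in NSC (2.13). For proline, Aldh18a1, which makes its precursor, had 135 ± 5.82 FPKM in Glioblastoma and 14.9 ± 0.47 FPKM in NSC (3.1), and Pycr1, the mitochondrial last step, had 26.2 ± 0.545 FPKM in Glioblastoma and 0.93 ± 0.205 FPKM in NSC (3.82). The 2 genes that were lower are Glul, glutamine synthetase of astrocytes, at 84.2 ± 7.2 FPKM in Glioblastoma and 186 ± 19 FPKM in NSC (-1.13), and Prodh, which breaks proline down (-0.42). Gpt2 was called higher by 0.33 on the deposited scale and was not called after scaling (0.03).

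Several mitochondrial folate enzymes were far higher, while cytosolic ones were higher, lower or not called. One-carbon units ride on folate: mitochondria take them from serine through SHMT2 and MTHFD2, and the cytosol uses them for purines, thymidylate and methionine. Mthfd2 (chromosome 6) had 94.5, 94.7 and 97.2 FPKM in Glioblastoma, against 0.907, 1.71 and 0.96 FPKM in NSC (log2 difference 5.48, SE 0.14, adjusted p = 1.17e-06). Shmt2 had 202, 195 and 198 FPKM in Glioblastoma, against 16.6, 17.3 and 15 FPKM in NSC (3.53, SE 0.07). Aldh1l2, the mitochondrial formyl-folate dehydrogenase, had 91.4, 90.8 and 90.6 FPKM in Glioblastoma, against 2.97, 3.28 and 2.44 FPKM in NSC (4.57, SE 0.09). Its cytosolic counterpart Aldh1l1, an astrocyte marker, went the other way, with 2.51, 2.09 and 2.11 FPKM in Glioblastoma, against 98.8, 103 and 89.5 FPKM in NSC (-4.92, SE 0.08). Mthfd1l, the mitochondrial enzyme that releases formate from folate, was higher at 21 ± 0.471 FPKM in Glioblastoma and 4.27 ± 0.54 FPKM in NSC (2.07). The cytosolic Mthfd1 had 18.7 ± 1.44 FPKM in Glioblastoma and 21.1 ± 2.25 FPKM in NSC and was not called (-0.16, adjusted p = 0.168). Mthfd1 was called lower after scaling (-0.45) and without NSC replicate 3 (-0.25). Shmt1, the cytosolic serine hydroxymethyltransferase, was higher by 1.55. Slc19a1, the reduced folate carrier, had 8.19 ± 0.6 FPKM in Glioblastoma and 1.22 ± 0.109 FPKM in NSC (2.05). Over the 24 tested folate genes, 15 were higher and 4 lower, and after scaling 13 were higher and 7 lower.

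In the methionine cycle and transsulfuration, the steps that lead to cysteine were higher. Mat2a, which makes S-adenosylmethionine, had 110 ± 5.14 FPKM in Glioblastoma and 51.1 ± 1.12 FPKM in NSC (log2 difference 1.09), and Mtr, methionine synthase, was higher by 0.32 on the deposited scale and not called after scaling (0.07). Cbs, the first enzyme of transsulfuration, had 122, 112 and 116 FPKM in Glioblastoma, against 17.1, 16.6 and 9.77 FPKM in NSC (2.96, SE 0.21). Cth, the second, had 20.6, 19.8 and 21.5 FPKM in Glioblastoma, against 1.78, 1.53 and 1.49 FPKM in NSC (3.06, SE 0.06). All 3 Glioblastoma libraries lay above all 3 NSC libraries for both enzymes. Of the 22 tested genes of this list 13 were higher and 5 lower, beside 48.4% higher and 25.4% lower of all genes. After scaling 9 were higher and 6 lower, beside 36.2% and 36.8% of all genes.

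**Figure D3:**
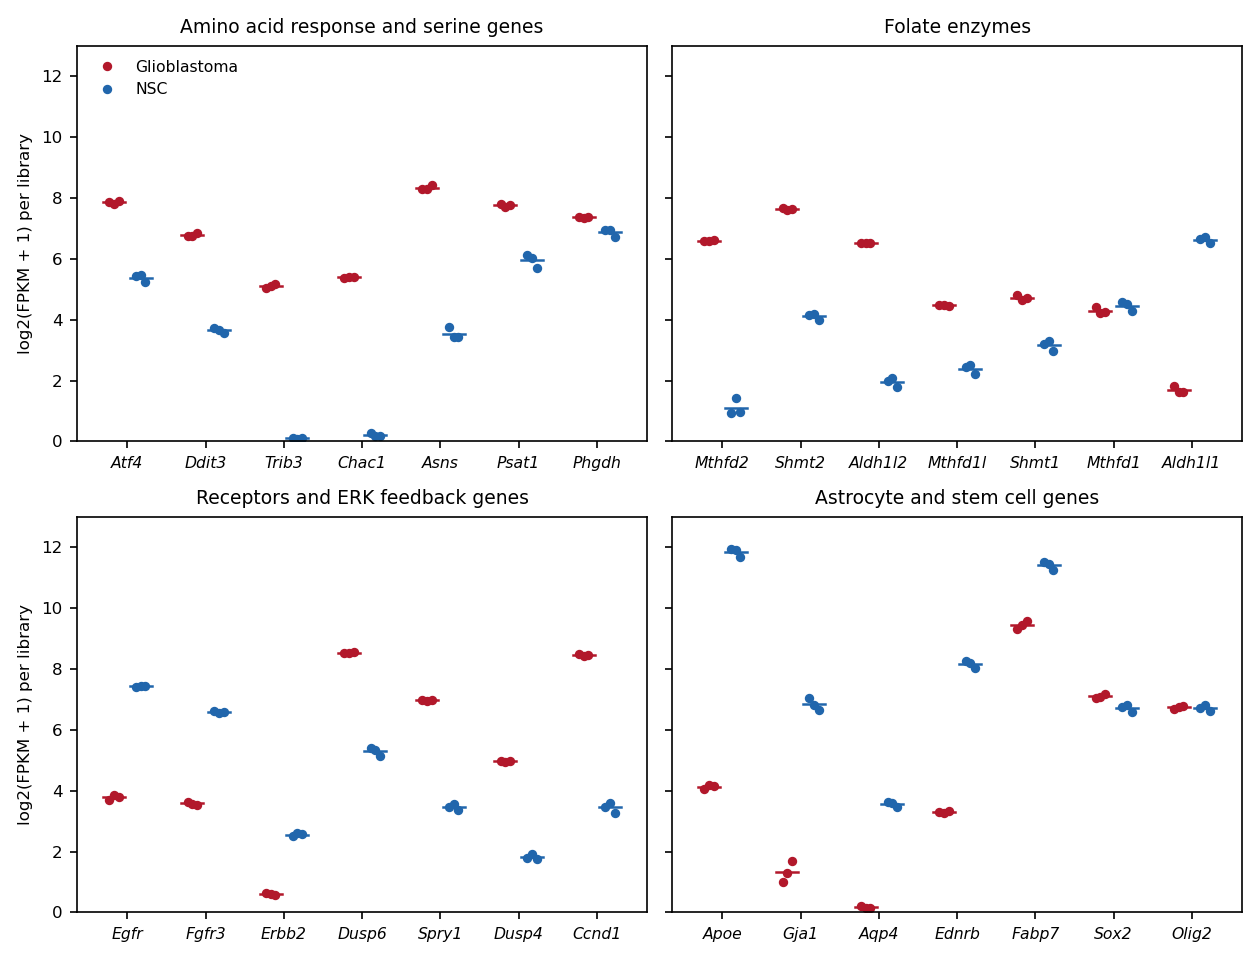
Level of 28 named genes in each library, as log2 of FPKM plus 1, with Glioblastoma in red to the left of NSC in blue; points are libraries and lines their means. Amino acid response genes, mitochondrial folate enzymes and ERK feedback genes are higher in Glioblastoma, Aldh1l1, Egfr, Fgfr3, Erbb2 and most astrocyte genes are lower, and Olig2 is level.

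Several growth factor receptors were lower while most genes that report ERK signalling were higher (16 of 19). The receptors named here come from the glioma driver list, in which 19 of 35 genes were higher and 9 lower. Of all genes 48.4% were higher and 25.4% lower. That lean did not hold after scaling, when 14 of the 35 were higher and 15 lower, beside 36.2% and 36.8% of all genes. Ddr2 shows that receptor kinases did not share a direction. Egfr, the EGF receptor, had 12, 13.5 and 12.9 FPKM in Glioblastoma, against 167, 173 and 171 FPKM in NSC (log2 difference -3.64, SE 0.06, adjusted p = 3.25e-07). Fgfr3 (11 ± 0.402 FPKM in Glioblastoma, 94.6 ± 1.99 FPKM in NSC), Erbb2 (0.517 ± 0.0239 FPKM in Glioblastoma, 4.87 ± 0.18 FPKM in NSC) and Pdgfra (10.3 ± 0.262 FPKM in Glioblastoma, 24.4 ± 1.44 FPKM in NSC) were lower as well. The ERK feedback genes Dusp6, Spry1 and Dusp4, which the pathway induces and which damp it, were higher. Dusp6, the ERK phosphatase, had 367, 363 and 371 FPKM in Glioblastoma, against 41.1, 39 and 34.3 FPKM in NSC (3.24, SE 0.08). Spry1, a Sprouty inhibitor of receptor signalling, had 126, 123 and 126 FPKM in Glioblastoma, against 10.1, 10.7 and 9.33 FPKM in NSC (3.52, SE 0.06), and Dusp4 had 30.1 ± 0.575 FPKM in Glioblastoma and 2.54 ± 0.211 FPKM in NSC (3.14). The 3 ERK-linked genes that fell were Il17rd (-1.57), Egr1 (-0.91) and Etv1 (-0.64). Hras, which carries the signal between receptor and ERK, was higher by 1.16, while Nf1, the RAS inhibitor often lost in glioma, had 25, 24.3 and 22.6 FPKM in Glioblastoma, against 24, 22.4 and 26.4 FPKM in NSC, and the groups overlapped (-0.01, adjusted p = 0.873). After scaling Nf1 was called lower (-0.3, adjusted p = 0.036). Sequence variants were not analysed here.

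Ccnd1, cyclin D1, which carries mitogen signals into the cell cycle (chromosome 7), had 355, 338 and 347 FPKM in Glioblastoma, against 10, 11.2 and 8.65 FPKM in NSC (log2 difference 4.99, SE 0.09, adjusted p = 4.7e-07). Ccnd2 had 201 ± 12.4 FPKM in Glioblastoma and 28.7 ± 2.24 FPKM in NSC (2.77). The CDK inhibitors went both ways: Cdkn2a, whose locus encodes the inhibitor p16 and the p53 activator ARF, had 106, 107 and 114 FPKM in Glioblastoma, against 9.54, 8.73 and 7.43 FPKM in NSC (3.53, SE 0.09), and gene-level values do not separate those transcripts. Cdkn2b beside it had 21.3 ± 1.11 FPKM in Glioblastoma and 3.8 ± 0.334 FPKM in NSC (2.22). Cdkn1c, the imprinted inhibitor p57, fell to 0.692 ± 0.231 FPKM in Glioblastoma, against 13.3 ± 2.07 FPKM in NSC (-3.07). Replication licensing genes led the S phase list, with Mcm3 at 50 ± 1.99 FPKM in Glioblastoma and 4.98 ± 0.56 FPKM in NSC (3.09) and Mcm2 at 112 ± 5.9 FPKM in Glioblastoma and 15.7 ± 2.33 FPKM in NSC (2.77). Of the 31 tested genes of the list 28 were higher and 1, the anaphase activator Cdc20, was lower (-0.54), and Mki67, the proliferation marker, had 22.2, 22.2 and 21 FPKM in Glioblastoma, against 21.6, 19.6 and 19.6 FPKM in NSC (0.1, adjusted p = 0.164), and was called lower after scaling (-0.19).

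Trp53, which encodes p53, had 16.4, 17 and 16.9 FPKM in Glioblastoma, against 7.66, 8.2 and 6.81 FPKM in NSC (log2 difference 1.06, SE 0.07), but its target genes did not share a direction. Of 24 tested targets 10 were higher and 12 lower, with a median of -0.14, beside 48.4% higher and 25.4% lower of all genes. Eda2r, a death receptor of the TNF receptor family, fell the furthest, with 0.0349, 0.0364 and 0.0288 FPKM in Glioblastoma, against 17.9, 16 and 15.4 FPKM in NSC (-4.07, SE 0.07). Trp53inp1 (-2.31) and Ccng1 (-1.29) fell too, while Cdkn1a, which encodes the inhibitor p21, was higher at 10.7 ± 0.301 FPKM in Glioblastoma and 5.86 ± 0.0665 FPKM in NSC (0.77), as was Plk2 (1.94).

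Glycolysis and hypoxia genes and sterol genes were higher across most steps. Vegfa, the angiogenic factor induced by low oxygen and by ATF4, had 179, 180 and 180 FPKM in Glioblastoma, against 4.71, 6.19 and 5.12 FPKM in NSC (log2 difference 4.84, SE 0.09, adjusted p = 4.86e-07). Hk2, the hexokinase of many tumours, had 18.1, 21.2 and 19.8 FPKM in Glioblastoma, against 0.534, 0.57 and 0.484 FPKM in NSC (3.76, SE 0.07), and Pfkl, a phosphofructokinase, had 51.7 ± 1.15 FPKM in Glioblastoma and 10.4 ± 0.234 FPKM in NSC (2.21). Slc2a1, the glucose carrier that hypoxia also raises, differed by much less, at 3.59 ± 0.306 FPKM in Glioblastoma and 1.72 ± 0.0694 FPKM in NSC (0.75). In sterol synthesis, Fdps, which makes farnesyl diphosphate, had 58.4 ± 1.88 FPKM in Glioblastoma and 11.6 ± 0.743 FPKM in NSC (2.24), and Sqle, squalene epoxidase, 54.9 ± 1.35 FPKM in Glioblastoma and 11.3 ± 0.734 FPKM in NSC (2.18). Hmgcs1 (0.35) and Mvk (0.36) were called higher on the deposited scale and not after scaling. Mvk also lost its call without Glioblastoma replicate 3 (adjusted p = 0.0506). Cox6a2, the heart and muscle form of a respiratory chain subunit, was among the leading genes, with 58.4, 65.1 and 68.6 FPKM in Glioblastoma, against 0.18, 0 and 0.102 FPKM in NSC (5.89, SE 0.09).

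Secreted factors and matrix contacts differed gene by gene. Spp1, osteopontin, had 24.3, 23.3 and 26.2 FPKM in Glioblastoma, against 0.0142, 0.0151 and 0.0378 FPKM in NSC (log2 difference 4.65, SE 0.06), and Timp1, a metalloproteinase inhibitor, had 28.1, 29 and 30.9 FPKM in Glioblastoma, against 0.463, 0.456 and 0.31 FPKM in NSC (4.43, SE 0.07). Igfbp3, which binds insulin-like growth factors, had 199 FPKM on average in Glioblastoma and 17.8 FPKM in NSC (3.41). Among integrin and laminin genes, 14 of 19 were higher and 4 lower, beside 48.4% higher and 25.4% lower of all genes. Itga4 (8.59 ± 0.465 FPKM in Glioblastoma, 0.186 ± 0.0348 FPKM in NSC) and Lama4 (21 ± 1.4 FPKM in Glioblastoma, 1.06 ± 0.267 FPKM in NSC) led the rise. Itgb8 (8.03 ± 0.138 FPKM in Glioblastoma, 74.4 ± 2.58 FPKM in NSC) and Itgb5 (2.98 ± 0.305 FPKM in Glioblastoma, 28.5 ± 2.28 FPKM in NSC), which pair with the alpha-v subunit, fell. Guidance and adhesion genes leaned lower (23 of 36 lower, 10 higher), with Epha5, an ephrin receptor, at 1.79 FPKM in Glioblastoma and 35.8 FPKM in NSC (-3.72), while Cntn1, a contactin of glial and neuronal surfaces, was higher at 91.5 FPKM in Glioblastoma and 10 FPKM in NSC (3.07).

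Genes of the astrocyte lineage were mostly lower in the tumour culture. Besides Apoe and Aldh1l1, Gja1, the gap junction protein connexin 43, had 0.976, 1.44 and 2.19 FPKM in Glioblastoma, against 131, 112 and 98.9 FPKM in NSC (log2 difference -5.52, SE 0.19), and Slc4a4, a bicarbonate carrier, had 1.68 ± 0.0998 FPKM in Glioblastoma and 37.4 ± 1.13 FPKM in NSC (-3.84). By at least 2-fold, 15 of the 22 tested astrocyte genes were lower, against 8.26% of all genes. The 3 that were higher are Clu, the secreted chaperone clusterin (28.2 ± 0.371 FPKM in Glioblastoma, 2.42 ± 0.282 FPKM in NSC), Gfap, the astrocyte filament (3.2 ± 0.31 FPKM in Glioblastoma, 0.964 ± 0.169 FPKM in NSC), and Acsl6. Gfap was low in both, since Astrocytes had 258 FPKM. In bulk RNA, fewer cells of a type and less RNA per cell cannot be told apart.

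Stem and progenitor genes divided, 7 of 23 being higher and 13 lower. Sox2, the pluripotency and neural stem cell factor, had 130, 135 and 143 FPKM in Glioblastoma, against 107, 112 and 94.3 FPKM in NSC (log2 difference 0.39, adjusted p = 0.00613), a call that was lost after scaling (0.09). Olig2, the factor of oligodendrocyte precursors and glioma, had 102, 106 and 108 FPKM in Glioblastoma, against 104, 111 and 97.7 FPKM in NSC (0.02, adjusted p = 0.846), and was called lower after scaling (-0.28). Nes, the progenitor filament nestin, was lower by little, at 46.6 ± 1.01 FPKM in Glioblastoma and 58.7 ± 4.94 FPKM in NSC (-0.32). The cortical stem cell genes fell further: Ednrb, the endothelin receptor of radial glia, had 8.84, 8.61 and 9.04 FPKM in Glioblastoma, against 303, 289 and 259 FPKM in NSC (-4.85, SE 0.07). Id4 (0.987 ± 0.144 FPKM in Glioblastoma, 17.3 ± 1.02 FPKM in NSC), Sox3 (1.36 ± 0.154 FPKM in Glioblastoma, 10.2 ± 0.947 FPKM in NSC) and Pax6 (3.59 ± 0.248 FPKM in Glioblastoma, 17.8 ± 0.94 FPKM in NSC), transcriptional regulators of progenitors, were also lower. Genes of the oligodendrocyte lineage leaned lower, with 9 of 14 lower and 4 higher (median -0.47), beside 25.4% lower and 48.4% higher of all genes. Nkx2-2 was among the higher ones, at 28 FPKM in Glioblastoma and 2.17 FPKM in NSC (3.19). Gpr17, a receptor of differentiating oligodendrocytes, fell (0.465 FPKM in Glioblastoma, 8.14 FPKM in NSC).

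Notch pathway genes were mostly lower (14 of 22, with 5 higher), beside 25.4% lower and 48.4% higher of all genes, and its ligands went both ways. Jag1 had 46.4, 44.3 and 44.9 FPKM in Glioblastoma, against 3.78, 3.53 and 3.83 FPKM in NSC (log2 difference 3.29, SE 0.05, adjusted p = 3.09e-07), and Jag2 was higher as well (1.4). The Delta ligand Dll1 was lower, at 27.6 ± 1.32 FPKM in Glioblastoma and 81.6 ± 3.89 FPKM in NSC (-1.53). The receptor Notch2 (3.5 ± 0.096 FPKM in Glioblastoma, 23.3 ± 1 FPKM in NSC) and Lfng, the Fringe enzyme that tunes which ligand a receptor answers (17.7 ± 0.603 FPKM in Glioblastoma, 95.5 ± 4.49 FPKM in NSC) were lower too. The target Hes1 was higher by 1.15 on the log2 scale, and Hes5 had 91.4 FPKM in Glioblastoma and 113 FPKM in NSC (-0.29). The call of Hes5 as lower was lost without any 1 of 5 of the 6 libraries, with adjusted p between 0.0507 and 0.0931.

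Regional identity genes did not share a direction: of the forebrain factors 4 of 12 were higher and 8 lower, and of the hindbrain and cerebellar factors 8 of 17 were higher and 8 lower. Lhx2, a forebrain factor, was lower at 5.67 FPKM in Glioblastoma and 25.8 FPKM in NSC (log2 difference -2.01). The forebrain factors Nr2f2 (4.3 FPKM in Glioblastoma, 0.979 FPKM in NSC), Dlx1 (2.92 FPKM in Glioblastoma, 0.469 FPKM in NSC) and Lhx9 (1.31 FPKM in Glioblastoma, 0.0263 FPKM in NSC) were higher by over 2-fold. En1 and En2, factors of the midbrain and anterior hindbrain from which the cerebellum forms, were higher, En2 with 2.87, 2.57 and 2.84 FPKM in Glioblastoma, against 0.226, 0.306 and 0.235 FPKM in NSC (1.58). Atoh1, Ptf1a, Pax2, Pax5 and Barhl1, factors of cerebellar development, averaged below 0.1 FPKM in Glioblastoma. Zic1 had 0.097, 0.04 and 0 FPKM in Glioblastoma, against 23.3, 26.6 and 22.2 FPKM in NSC (-4.58, SE 0.08). Zic1 is listed here as a cerebellar factor but was present in the cortical NSC, and averaged 15.3 FPKM in Astrocytes and 15.3 FPKM in MIM-Astrocytes. The region of origin of the Glioblastoma culture was not tested.

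Hox genes were expressed in Glioblastoma and almost silent in the other cultures. Hox genes give cells of the hindbrain, spinal cord and body axis their position, run in 4 clusters, and are normally silent in the forebrain and the cerebellar territory. Of 40 Hox identifiers, 14 were tested and all 14 were higher, 9 of the A cluster (chromosome 6) and 5 of the D cluster (chromosome 2, where Hoxd4 has 2 identifiers). They passed the filter through Glioblastoma alone, so their direction was fixed by it. Hoxd8 had 15.2, 13.1 and 15.1 FPKM in Glioblastoma, against 0.0221, 0.00751 and 0 FPKM in NSC, and Hoxa7 had 12.7, 12.2 and 13.7 FPKM in Glioblastoma, against 0.019, 0.0101 and 0.046 FPKM in NSC. The posterior genes Hoxa13 (3.14, 3.17 and 2.88 FPKM) and Hoxd13 (2.13, 2.11 and 2.21 FPKM) were present in Glioblastoma too, while Hoxd13 is listed at 0 in all 3 NSC libraries. Within a cluster the level did not follow the order of the genes: Hoxa11, between Hoxa10 and Hoxa13, reached at most 0.033 FPKM. No B cluster gene exceeded 0.0111 FPKM in any Glioblastoma library, and the C cluster reached 0.96 FPKM with Hoxc4. In the D cluster the highest single value was 0.0221 FPKM in the NSC libraries and 0.0111 FPKM in the astrocyte cultures.

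**Figure D4:**
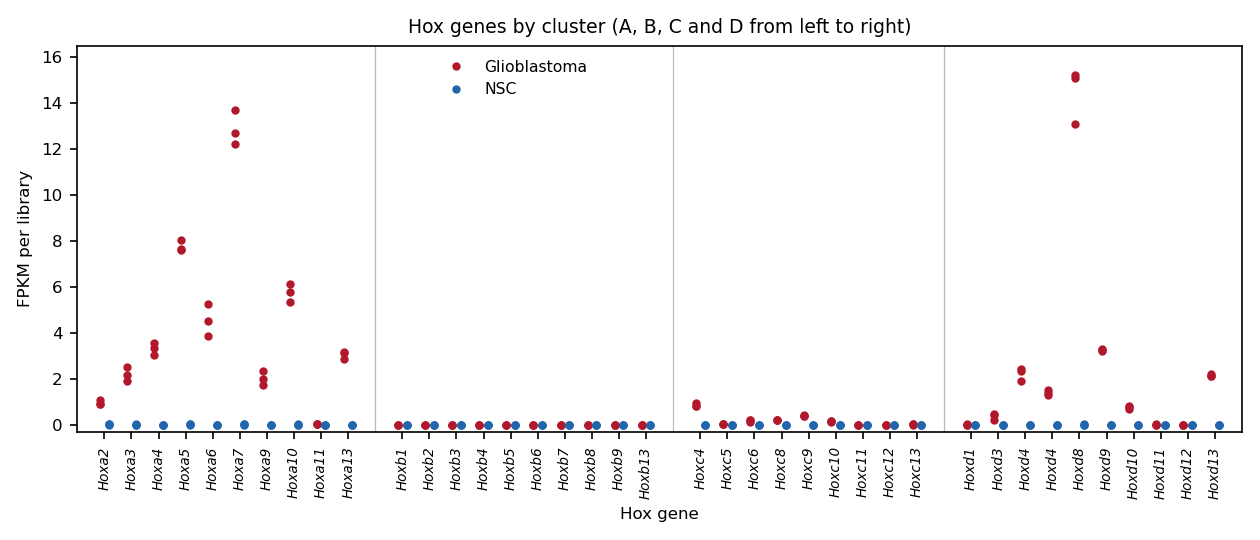
FPKM of Hox identifiers in the Glioblastoma libraries (red, left) and the NSC libraries (blue, right), ordered by cluster and position. A and D cluster genes reach up to 15.2 FPKM in Glioblastoma, B cluster genes stay at or near 0, and the NSC points lie at or near 0.

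Whole chromosomes differed as well, and 3 of them stood apart. Small RNA genes were left out here. The median difference is given relative to that of all other tested genes on chromosomes 1 to 19, X and Y (0.25). It was -0.6 over the 888 genes of chromosome 4, -0.63 over the 459 of chromosome 16 and -0.59 over the 388 of chromosome 18. The other autosomes and the X chromosome lay between -0.18 (chromosome 13) and 0.3 (chromosome 11). Because each value is relative to all genes, a common scaling shifts it little: over 21 alternative settings chromosome 4 ranged between -0.69 and -0.57, chromosome 16 between -0.72 and -0.6, and chromosome 18 between -0.7 and -0.59.

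The deviation belonged to the Glioblastoma libraries. Set against the mean of the 4 groups, the median of chromosome 4 was -0.44, -0.45 and -0.42 in the Glioblastoma libraries and between 0.11 and 0.16 in the other 9 libraries. Chromosome 16 stood at -0.44, -0.45 and -0.46 in Glioblastoma and between 0.11 and 0.2 in the other 9, and chromosome 18 at -0.44, -0.43 and -0.46 in Glioblastoma and between 0.09 and 0.19 in the other 9. The 3 chromosomes were thus lower by nearly the same amount in the same 3 libraries. Among protein-coding genes with a mean of at least 5 FPKM, the median ratio of Glioblastoma to NSC, divided by that of all such genes, was 0.59 on chromosome 4 (500 genes), 0.6 on chromosome 16 (269) and 0.63 on chromosome 18 (192). These are descriptions with no test, and DNA copy number was not analysed here.

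The deviation ran along each chromosome. In runs of 50 neighbouring tested genes, the median was below that of all genes in 17 of 17 on chromosome 4. The same held for 9 of 9 on chromosome 16 and 7 of 7 on chromosome 18, against 89 of 254 on the other chromosomes. Chromosome 7, with 20 of 22 runs, and chromosome 13, with 10 of 12, came close to this. A median below 0 was found in 16 of 17, 9 of 9 and 7 of 7 runs on chromosomes 4, 16 and 18. Elsewhere it was found in 25 of 254 runs, including 9 of 22 on chromosome 7. The lowest run of all lay on chromosome 16 (65539128 to 90226329, GRCm38) with a median of -1.06, and holds the guidance receptor Robo2 (2.42 FPKM in Glioblastoma, 18.7 FPKM in NSC) and Ncam2. The next, at -0.83, lay on chromosome 18 (36952651 to 37841873) over the clustered protocadherins, surface proteins that give neurons individual identities. There Pcdhga7 had 0.614 FPKM in Glioblastoma and 6.21 FPKM in NSC (log2 difference -2.16), while Pcdhb5 was higher at 7.59 FPKM in Glioblastoma and 0.814 FPKM in NSC (2.24), and reads of these near-identical genes could be shared between them. Single genes could go against their chromosome: Rab3b, Cdkn2a and Cdkn2b on chromosome 4 and Hes1 on chromosome 16 were higher in Glioblastoma.

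**Figure D5:**
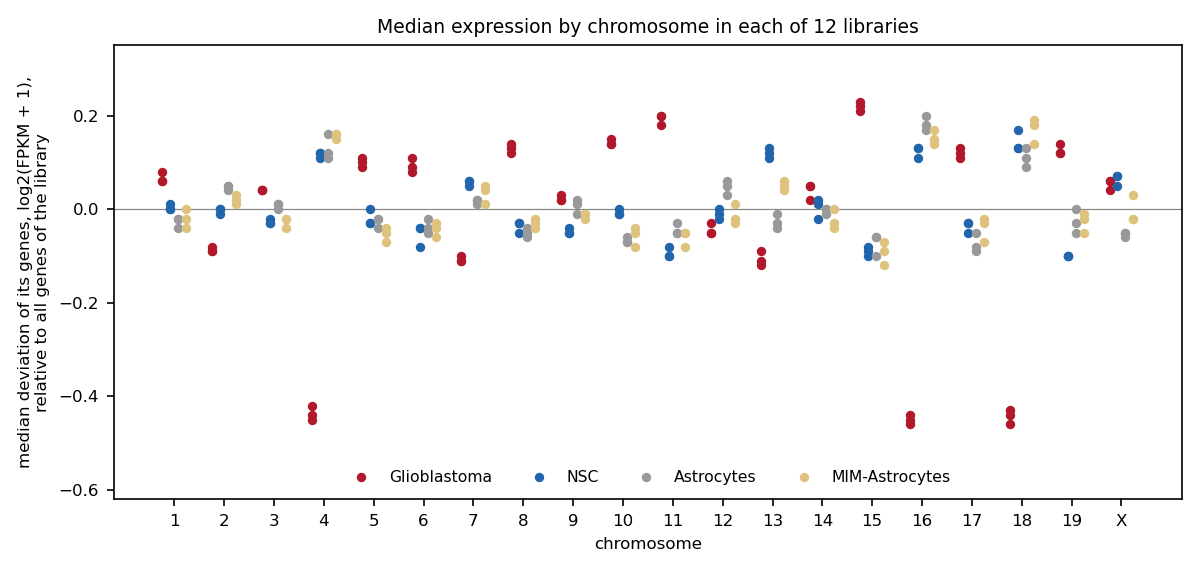
Median deviation of the tested genes of each chromosome from the mean of the 4 groups, in log2 of FPKM plus 1 and relative to all genes of the same library, with each point 1 of 12 libraries. The Glioblastoma libraries (red) lie near -0.44 for chromosomes 4, 16 and 18, where the other 9 libraries lie between 0.09 and 0.2.

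Most markers of microglia, endothelial and mural cells were low in both cultures. Of 18 microglia and macrophage markers 16 stayed below 1 FPKM in all 6 libraries, Aif1, Csf1r, Ptprc and P2ry12 among them, and their summed level was 24.6 to 28.1 FPKM in Glioblastoma and 28 to 30.8 FPKM in NSC. Endothelial and mural markers summed to 4.83 to 5.25 FPKM in Glioblastoma and 5.67 to 6.65 FPKM in NSC, with 16 of 18 below 1 FPKM. Of 17 meningeal fibroblast markers 10 were below 1 FPKM in all 6 libraries, including Col1a1, Col1a2, Col3a1, Dcn and Lum. Their sum was 542 to 559 FPKM in Glioblastoma and 256 to 302 FPKM in NSC, mostly from Igfbp2, which neural cells express too. Neuronal genes did not move together (6 of 13 higher, 6 lower). Their sum was lower in the tumour culture, at 359 to 373 FPKM in Glioblastoma and 507 to 547 FPKM in NSC. Among the higher members, Gap43, a growth cone protein, had 42.8 FPKM in Glioblastoma and 1.31 FPKM in NSC. Syt1, a vesicle calcium sensor, had 19.6 FPKM in Glioblastoma and 0.224 FPKM in NSC.

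Sex-linked transcripts differed too, none of the 9 tested being higher and 6 lower, beside 48.4% higher and 25.4% lower of all genes. Xist, the RNA that coats the inactive X chromosome in female cells, had 0.199, 0.0984 and 0.122 FPKM in Glioblastoma, against 98.9, 95.1 and 116 FPKM in NSC (log2 difference -6.51, SE 0.09). The Y-linked genes Ddx3y (5.71 FPKM in Glioblastoma, 6.91 FPKM in NSC) and Eif2s3y (12.1 FPKM in Glioblastoma, 18.7 FPKM in NSC) were present in both groups, so the NSC libraries held Xist and Y-linked RNA together. Whether embryos of both sexes were pooled is not given. Kdm6a, an X-linked histone demethylase, had 8.41, 8.86 and 7.35 FPKM in Glioblastoma, against 39.3, 39.4 and 39.6 FPKM in NSC (-2.14), while the median difference of the 518 tested genes of the X chromosome was 0.28, against 0.25 over all chromosomes.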

How the data were processed

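Total RNA of 6 libraries, 3 Glioblastoma and 3 NSC, was compared. The authors deposited FPKM per gene with an interval and a status, made with Cufflinks (version not given) on GRCm38, per the submitters' processing notes and the file headers. The aligner and the strandedness are not given in the sources used here, so overlapping genes on opposite strands were not separated. Values of lines sharing an identifier were added, and the status rule removed 16 of 15508 genes, Gapdh and Epha4 among them. Log2 of FPKM plus 1 was fitted with limma 3.58.1 in R 4.3.3 (1 mean per group, 6 libraries, 4 residual degrees of freedom, variance trend). P-values are two-sided and adjusted over 15492 genes by Benjamini and Hochberg, with calls below 0.05, and the fit was tested on simulated data. The pseudocount of 1 pulls differences of weakly expressed genes toward 0. Tables were handled with Python 3.11.15 and pandas 2.3.3.

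The comparison and its members, 43 gene lists (1087 genes, 777 tested) and the rules were chosen with earlier results of these data known, so no list was tested as such. Genes were named by rule: the 12 largest differences each way that were called, did not overlap and reached a mean of 5 FPKM in the higher group (no unnamed gene models, pseudogenes or small RNAs), the 3 smallest p each way of each list, and a fixed set (Trp53, Cdkn2a, Nf1, Egfr, Pdgfra, Ccnd1, Cdkn1a, Sox2, Nes, Olig2, Gfap, Mki67, En2, Gli1, Igf2, Xist, Ddx3y and others). Not every gene of the rule is reported here. Gli1 and Igf2 were below the filter. Genes named outside the rule were chosen after their values were seen: Nog, Fndc5, Ptn, Atf4, Ddit3, Asns, Slc7a11, Pycr1, Phgdh, Psat1, Psph, Gpt2, Mthfd1l, Mthfd1, Shmt1, Slc19a1, Mtr, Cbs, Dusp6, Hras, Mcm2, Slc2a1, Hmgcs1, Mvk, Sox3, Pax6, Dll1, Hes5, Robo2, Tet1, Col5a2, Hmga1, several Hox genes and genes given only as below the filter. Chromosome medians used the gene positions of the deposited values and left out small RNA genes, by their class in GENCODE release M21. Gins2, Tubb3, Foxc2, Slc7a5, Mvd and Rpl13 were not analysed here.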

Additional observations from a re-analysis of the deposited data

How the results depend on the processing

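The counts, named genes, list medians and chromosome medians were recomputed under 21 alternatives (pseudocount, filter, scaling, gene set, all 12 libraries in 1 fit, weights, trend, replicate block and each library left out). Genes higher by at least 2-fold numbered 1447 once mitochondrial genes and small RNAs were left out, 1476 with a common protein-coding total and 1512 after median-of-ratios scaling, against 2349 as reported. A mean of at least 5 FPKM, which tests 10183 genes, gave 2210 lower genes, 662 of them by at least 2-fold, and 2309 called by at least 2-fold in either direction. No filter, with 35637 genes, gave 6270 lower genes. The other counts of calls stayed within 1.5 times those reported. Leaving out 1 library at a time gave 7018 to 7288 higher and 3611 to 3972 lower genes.

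Libraries with the same replicate number did not deviate together (correlations -0.014, 0.002 and -0.054), so the numbers are not taken to pair samples. With the replicate number as a block, 7064 genes were higher and 3674 lower.

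Nf1, not called as reported, turned positive with array weights (0.03), ranged between -0.07 and 0.05 without 1 library, and was called lower after median-of-ratios scaling (-0.3), with a common protein-coding total (-0.32) and with quantile normalization (-0.33). Olig2 turned negative with array weights (-0.01), a common FPKM total (-0.09), a common protein-coding total (-0.3), median-of-ratios scaling (-0.28), quantile normalization (-0.33) and the set without mitochondrial or small RNAs (-0.29), and ranged between -0.03 and 0.06 without 1 library. Mki67 turned negative with a common FPKM total (-0.0), a common protein-coding total (-0.21), median-of-ratios scaling (-0.19), quantile normalization (-0.21) and the set without mitochondrial or small RNAs (-0.19). Gpt2 turned negative with quantile normalization (-0.02). The cause was not tested. Of 326 genes taken by the naming rule or chosen after their values were seen, 307 kept their direction and their side of the threshold in each alternative that gave a value. The rule took genes largely by large differences or small p in this same comparison, so that count does not describe all genes. Over all genes, 1861 of the 7497 called higher lost their call after median-of-ratios scaling. The chromosome medians were read under settings other than median-of-ratios scaling after the data were seen. Depth limits weakly expressed genes most, and no batch is given.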

Other observations

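Of 19 tested interferon-induced and antigen presentation genes, 11 were higher in Glioblastoma and 4 lower, with a median of 0.74, beside 48.4% higher and 25.4% lower of all genes, while 14 listed genes such as Isg15, Mx1 and Irf7 stayed below the filter. Ifitm3, a membrane protein that blocks virus entry, had 15.3, 14.6 and 15.2 FPKM in Glioblastoma, against 0.578, 0.576 and 0.48 FPKM in NSC (log2 difference 3.37, SE 0.05). Imprinted genes, which are expressed from 1 parental allele, went both ways (10 of 23 higher, 10 lower). H19, a noncoding RNA expressed from the maternal allele, had 11.8 FPKM in Glioblastoma and 0.443 FPKM in NSC (3.15), and Airn, a noncoding RNA antisense to Igf2r, had 9.4 FPKM in Glioblastoma and 1.35 FPKM in NSC (2.15), although Igf2r itself was higher too (1.33), and unstranded reads of the pair could not be told apart. Nnat (57.6 FPKM in Glioblastoma, 748 FPKM in NSC), Grb10 (0.0453 FPKM in Glioblastoma, 9.46 FPKM in NSC) and Ndn (2.01 FPKM in Glioblastoma, 13.8 FPKM in NSC) fell.

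Genes of DNA methylation went both ways, 10 of 17 being higher and 4 lower, beside 48.4% higher and 25.4% lower of all genes. After scaling 7 were higher and 6 lower, beside 36.2% and 36.8% of all genes. Dnmt1, which copies methylation after replication, had 51.2 FPKM in Glioblastoma and 12.2 FPKM in NSC (log2 difference 1.98), and its partner Uhrf1 had 32.2 FPKM in Glioblastoma and 8.62 FPKM in NSC (1.79). Tet1 (-0.66) and Tet2 (-0.69), which oxidise methylcytosine, were lower, and so was Dnmt3b (-0.83). Collagen chains also diverged: Col18a1 had 17 FPKM in Glioblastoma and 0.674 FPKM in NSC (3.42), Col6a1 had 4.16 FPKM in Glioblastoma and 0.0514 FPKM in NSC (2.3), and Col5a2 had 1.67 FPKM in Glioblastoma and 21.2 FPKM in NSC (-3.07). The hedgehog receptor Ptch1 had 12.7 FPKM in Glioblastoma and 41.9 FPKM in NSC (-1.66), and Gli1 was below the filter. The chromatin proteins Hmga2 (7.12 FPKM in Glioblastoma, 0.301 FPKM in NSC) and Hmga1 (23.6 FPKM in Glioblastoma, 4.7 FPKM in NSC) were higher, while Lin28a, Nanog and Pou5f1 were below the filter. By class, genes annotated TEC, models still awaiting experimental evidence, leaned lower (236 of 414 lower, 67 higher), whereas 6468 of 11918 protein-coding genes were higher and 2986 lower. Of 36 tested ribosomal protein genes 23 were higher and 1 lower, and after scaling 15 were higher and 7 lower, and reads of their many processed copies could be shared.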
